A study of Homo sapiens with 4 samples.

Results

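The MYC, MAX and MXD network was read in ES-2 cells through 10 genes chosen by symbol: MYC, MYCL, MAX, MXD1, MXD3, MXD4, MXI1, MNT, MLX and MGA. All 10 were among the 19626 genes of the deposited tables, and 9 of them were expressed highly enough to be tested. ES-2 is an established human ovarian clear cell carcinoma line that carries an endogenous YAP1-MAML2 (YM) fusion. Control cells (shCtl, n = 2 libraries) had received a pLKO.1 lentivirus with a nontargeting shRNA, and depleted cells (shM2-3, labelled shMAML2, n = 2 libraries) had received the same vector with an shRNA against MAML2. The shRNA targets a part shared by MAML2 and the fusion, so both groups carry the fusion gene and both products are targeted in the depleted group. Virus was added for 8 h on consecutive days, and RNA was taken 96 h after the first infection according to the labels, while the methods of the study give another infection schedule and a shorter time to RNA. The libraries of a group are biological replicates that the series' design text describes as separate cultures, all of 1 cell line and, for the depletion, 1 shRNA.

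MYC is a transcription factor that binds the E-box, the DNA motif CACGTG, only when paired with MAX. MAX also pairs with the MXD proteins (MXD1, MXD3, MXD4 and MXI1), with MNT and with MGA, and these pairs recruit repressors to the same motif and so oppose MYC. MLX is a MAX-like partner for the nutrient sensors MondoA (MLXIP) and ChREBP (MLXIPL). MYC drives ribosome production, nucleotide synthesis and cell growth, whereas MXD proteins are classically associated with cells that leave the cell cycle, and MYC is a known target of YAP1 and TEAD in several tissues.

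The deposited values were estimated reads per gene and RPKM, that is, mapped reads scaled to transcript length and library depth. The libraries held between 20051083 and 23978660 estimated counts. MAML2, whose counts include the MAML2 part of the fusion, retained 36.2% of its control RPKM. It fell by 1.40 on the log2 scale (standard error 0.0688, adjusted p = 5.18e-10, edgeR). YAP1, whose counts include the 5′ part of the fusion, was higher at 0.42 (standard error 0.0365). Of the ovarian clear cell markers reported here, NAPSA, PAX8 and EPCAM stayed under an RPKM of 1 in all libraries and KRT7 was expressed, so the clear cell identity rests on the label. KRT7 itself fell from a mean RPKM of 268 in shCtl to 107 in shM2-3 (log2 fold change -1.26, adjusted p = 4.96e-12, edgeR). Of 6 fibroblast markers, only PDGFRA was above an RPKM of 1, and the summed RPKM of the list was 7.95 to 8.01 in shCtl and 25.1 to 25.7 in shM2-3. Of 5 leukocyte markers, CD68 and LYZ passed an RPKM of 1, with sums of 57.4 to 58.3 in shCtl and 40.0 to 41.1 in shM2-3. CD68 made up nearly all of that sum, with a mean RPKM of 57.1 in shCtl and 38.4 in shM2-3. CD14, not tested, had a mean RPKM of 0.0898 in shCtl and 0.878 in shM2-3. The groups overlapped for LYZ, at 33 and 15 counts in the control libraries against 100 and 5 after depletion. The part of these markers in the changes reported here was not tested, and in bulk RNA fewer cells of a type and less RNA per cell cannot be told apart.

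Depletion of YM/MAML2 left the network with far less MYC, less MXI1, and more MXD4 and MAX. MYC fell to 12.8% of its control RPKM and MXI1 to 41.2%, while MXD4 and MAX stood at 219% and 182%. MXD1, MXD3, MLX and MGA showed no difference that passed the test, MNT had a small difference that most alternatives did not call, and MYCL was close to silent in every library. Genes were called at a fold change of 2 or more and an adjusted p of 0.05 or less (quasi-likelihood test of edgeR with Benjamini-Hochberg adjustment). By that rule 2 of the 9 tested members were called lower (MYC and MXI1) and 1 was called higher (MXD4), where 8.93% of the 12157 tested genes were called lower and 9.24% higher. By the adjusted p alone, 2 members were lower and 3 were higher (MXD4, MAX and MNT), against 36.4% and 36.3% of all tested genes, and without MNT, whose call was lost in 7 of 11 alternatives, 2 were higher. The median log2 fold change of the 9 members was -0.044, and that of all tested genes was -0.0037.

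**Figure D1:**
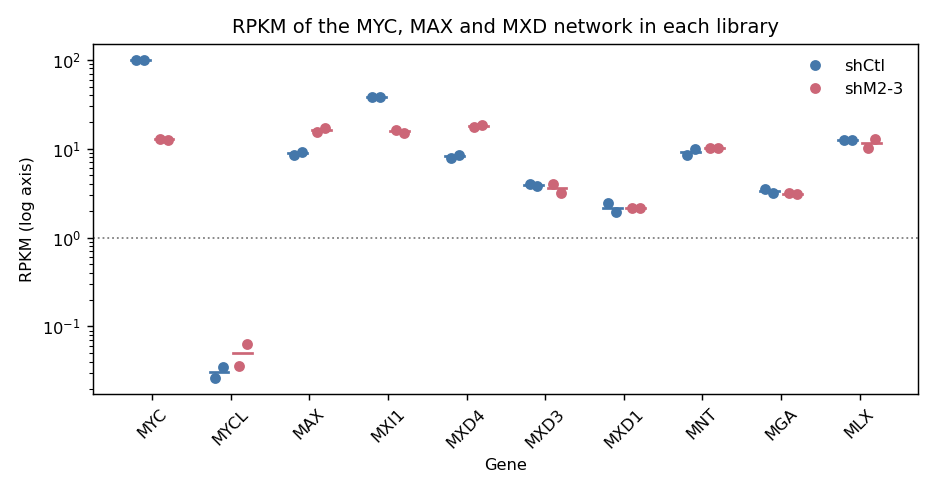
RPKM (log axis) of the 10 network genes, 1 point per library, with a horizontal bar at the mean of the 2 libraries of a group and a dotted line at the RPKM of 1 used as the filter. MYC sits near 99.8 in shCtl and near 12.8 in shM2-3, MXI1 drops, MXD4 and MAX rise, and MYCL lies under the dotted line in all 4 libraries.

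MYC (chromosome 8 of hg38, 127735434 to 127742951, plus strand) is the activator of the network. The shCtl libraries held 10557 and 10745 counts of MYC, and the shM2-3 libraries 1663 and 1485. Its RPKM was 99.7 and 99.8 in shCtl and 12.8 and 12.7 in shM2-3, so the groups were widely separated and the replicates nearly identical. MYC had the highest RPKM of the 10 genes in both shCtl libraries and ranked behind MXD4, MXI1 and MAX in both shM2-3 libraries, and in replicate 2 behind MLX too. Among all genes of a library, its RPKM had a percentile of 97.7 and 97.6 in shCtl and of 80.3 and 80.2 in shM2-3. The fold decrease was 7.47 (log2 fold change -2.90, standard error 0.0436, adjusted p = 4.91e-15, edgeR). Leaving out any 1 library left the log2 fold change at -2.90. The annotation places the lncRNA CASC11 over MYC on the opposite strand, and the libraries carry no strand. CASC11 itself held between 0 and 3 counts per library, and how far its reads enter the MYC count was not tested.

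MYCL (chromosome 1, 39895428 to 39902256), a MYC paralogue, was almost undetected, with 3 and 4 counts in the control libraries and 5 and 8 after depletion. With an RPKM of 0.0636 or less it fell under the filter and was not tested, and the depth did not allow a difference to be detected. MYCN, the other paralogue, was not tested either, with a mean RPKM of 0.0073 in shCtl and 0.013 in shM2-3. MYC therefore supplied nearly all measured MYC-family transcripts in both groups.

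MAX (chromosome 14, 65006174 to 65102695, minus strand) is the partner that MYC needs for DNA binding and that its antagonists share. Its RPKM was 8.51 and 9.26 in shCtl against 15.2 and 17.2 after depletion, from 605 and 670 against 1325 and 1354 counts. Both shM2-3 libraries lay above both controls. The log2 fold change was 0.93 (standard error 0.0809, adjusted p = 1.92e-07, edgeR), a 1.91-fold rise that falls just short of the limit of 2. The call depends on 1 library, since without shM2-3 replicate 1 the value was 1.03 and passed the limit. MAX overlaps FNTB and the read-through gene CHURC1-FNTB on the opposite strand. For FNTB the counts were 118 and 62 in shCtl against 341 and 302 after depletion, and for CHURC1-FNTB 225 and 225 against 13 and 93. How far reads of these overlapping genes enter the MAX count was not tested.

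Among the MXD antagonists, MXI1 and MXD4 moved in opposite directions. MXI1 (chromosome 10, 110207605 to 110287365, plus strand) had an RPKM of 37.7 and 38.5 in shCtl and 16.3 and 15.1 in shM2-3, from 3398 and 3521 counts against 1797 and 1504. The groups did not overlap, and MXI1 fell by 1.21 on the log2 scale (standard error 0.0491, adjusted p = 6.83e-11, edgeR). MXD4 (chromosome 4, 2247432 to 2262109, minus strand) had an RPKM of 7.85 and 8.49 in shCtl and 17.4 and 18.4 in shM2-3, from 712 and 783 counts against 1924 and 1843. MXD4 rose by 1.19 on the log2 scale (standard error 0.0668, adjusted p = 2.09e-09, edgeR), again with no overlap between groups. In shCtl the RPKM of MXI1 was exceeded by that of MYC alone, and MXD4 lay below MLX, MNT and MAX as well. In shM2-3 MXD4 was first, with MXI1 next in replicate 1 and behind MAX in replicate 2. Neighbours in this order were not all separate: in shCtl the mean RPKM of MNT (9.22 ± 0.882, SD, n = 2), of MAX (8.89 ± 0.532) and of MXD4 (8.17 ± 0.452) lay within their spread, as did in shM2-3 that of MAX (16.2 ± 1.39) and of MXI1 (15.7 ± 0.874). The ranges of MXD4 (17.9 ± 0.709) and MAX, adjacent in shM2-3 replicate 2, also met within their SDs, as did those of MYC (12.8 ± 0.128) and MLX (11.6 ± 1.85).

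MXD1 and MXD3, antagonists of lower abundance, did not pass the test. MXD1 had an RPKM of 2.43 and 1.92 in shCtl and 2.16 and 2.16 in shM2-3, for a log2 difference of 0.053 (standard error 0.133, adjusted p = 0.733, edgeR). MXD3, the member expressed in proliferating cells, had an RPKM of 3.96 and 3.83 in shCtl and 3.97 and 3.21 in shM2-3, for a log2 difference of -0.049 (standard error 0.138, adjusted p = 0.762, edgeR). For both genes the groups overlapped. The difference between group means was smaller than the SD of the shCtl libraries for MXD1 (0.361) and of the shM2-3 libraries for MXD3 (0.535). MXD3 overlaps RAB24 and PRELID1, which were lower in shM2-3 by this test, with log2 fold changes of -0.56 and -0.76, and the gene-level counts could share reads with them. MXD1 overlaps SNRNP27, whose log2 fold change was -0.046.

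MNT (chromosome 17, 2384073 to 2401104, minus strand), a broadly expressed repressor partner of MAX, had an RPKM of 8.60 and 9.85 in shCtl and 10.1 and 10.1 in shM2-3. Its log2 fold change of 0.19 (standard error 0.0710) gave an adjusted p of 0.0255 in edgeR's quasi-likelihood test. The gap between shCtl replicates was larger than that between shCtl replicate 2 and either shM2-3 library. In 7 of 11 alternatives the adjusted p of MNT was above 0.05, and over all of them (edgeR, DESeq2 and limma) it ranged from 0.0015 to 0.256. Without shCtl replicate 1 the log2 fold change was 0.10, so the size of the MNT difference rests on that library.

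MGA (chromosome 15, 41621134 to 41773081, plus strand) is a very large MAX partner that works within a Polycomb-type repressor complex. Its RPKM was 3.53 and 3.20 in shCtl and 3.17 and 3.06 in shM2-3. The RPKM values of the groups did not overlap, but with TMM scaling the log2 fold change was -0.046 (standard error 0.0721, adjusted p = 0.580, edgeR). MLX (chromosome 17, 42567072 to 42573239, plus strand) had an RPKM of 12.4 and 12.5 in shCtl and 10.3 and 12.9 in shM2-3. The shM2-3 replicates of MLX lay on either side of both controls, and the log2 fold change was -0.044 (standard error 0.0989, adjusted p = 0.705, edgeR). The signs of MXD1, MXD3, MGA and MLX each changed under at least 1 alternative, so no direction is given for them.

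**Figure D2:**
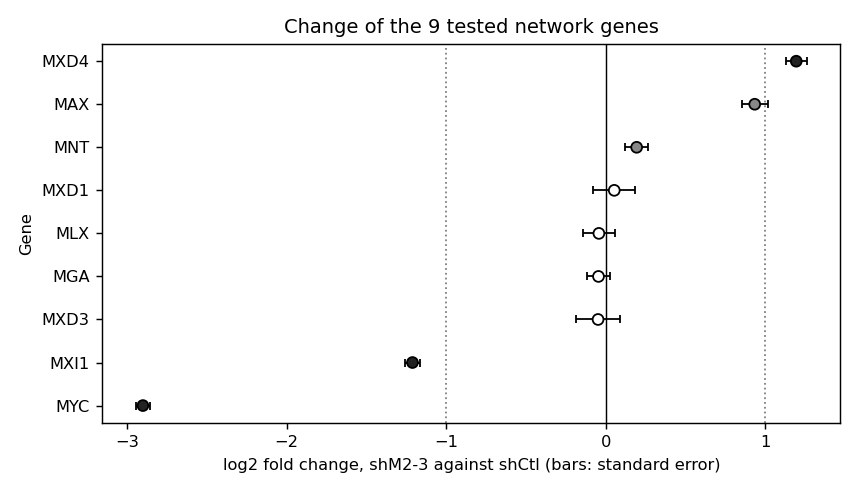
log2 fold change of the 9 tested network genes, with bars for 1 standard error. Black points passed both limits, grey points passed the adjusted p of 0.05 only, white points passed neither, and dotted lines mark a fold change of 2. MYC at -2.90 and MXD4 at 1.19 are the ends of the range.

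The balance within a library was described from RPKM, since ratios within a library do not depend on how libraries are scaled to each other. These are ratios of transcripts and not of proteins. Ratios between genes also depend on the transcript lengths used for RPKM. MYC exceeded MAX 11.7 and 10.8 times in the shCtl libraries, and stood at 0.844 and 0.737 of MAX in the shM2-3 libraries. Without length scaling, the shM2-3 counts of MYC (1663 and 1485) were still above those of MAX (1325 and 1354). The summed RPKM of 5 antagonists (MXD1, MXD3, MXD4, MXI1 and MNT) was 60.6 and 62.5 in shCtl and 49.9 and 48.9 in shM2-3, a smaller shift than that of MYC. MYC was 1.65 and 1.60 times this sum in shCtl. In shM2-3 the sum was 3.88 and 3.86 times MYC. Of the RPKM of all 10 genes, MYC made up 54.0% and 53.3% in shCtl and 14.1% and 13.4% in shM2-3.

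The make-up of the antagonists also shifted. MXI1 accounted for 62.3% and 61.5% of their summed RPKM in shCtl and for 32.7% and 30.9% in shM2-3. The share of MXD4 was 13.0% and 13.6% in shCtl and 34.8% and 37.5% in shM2-3. The share of MNT was 14.2% and 15.7% against 20.2% and 20.6%. In the shM2-3 libraries MXD4 thus replaced MXI1 as the most abundant antagonist transcript.

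**Figure D3:**
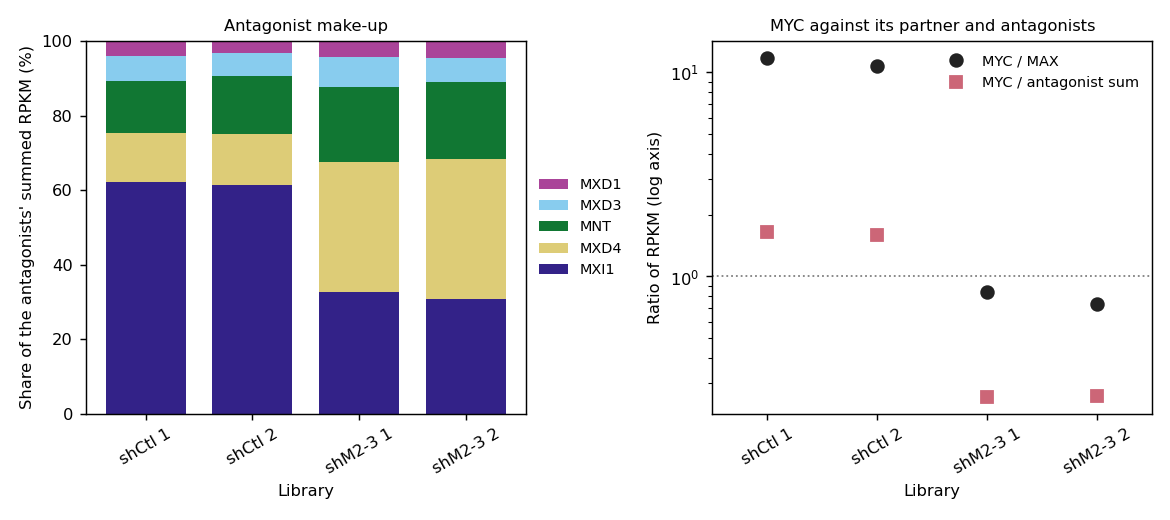
Left, percent of the summed RPKM of 5 MAX-binding antagonists held by each, in each of the 4 libraries. Right, RPKM of MYC divided by that of MAX (circles) and by the antagonist sum (squares), on a log axis with a dotted line at 1. MYC lies above both in the shCtl libraries and below both in the shM2-3 libraries.

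Genes near MYC and genes with similar profiles were read next. Of 10 neighbours of MYC on its chromosome arm, 7 were not tested for low RPKM. PVT1, the long noncoding RNA gene downstream of MYC, fell from a mean RPKM of 9.29 to 4.02 (log2 fold change -1.14, standard error 0.115, adjusted p = 8.82e-07, edgeR). TRIB1 rose with a log2 fold change of 0.94. LRATD2 was lower by edgeR at -0.22 (standard error 0.0746, adjusted p = 0.0175), but the number of neighbours lower by adjusted p, 2 of 3 tested against 36.4% of all tested genes, was 1 with DESeq2 and without shM2-3 replicate 2. With the fold limit 1 of the 3 (PVT1) was called lower, against 8.93% of all tested genes. None was called higher, against 9.24%, and without shCtl replicate 1 there was 1. The genes with centred log2(RPKM + 0.1) values closest to those of MYC over the 4 libraries were TGFB2, INSIG1 and MYBL1, at Euclidean distances of 0.041, 0.054 and 0.114. TGFB2 encodes a growth factor, INSIG1 a sterol-regulated brake on cholesterol synthesis and MYBL1 a MYB-family transcription factor. Their log2 fold changes were -2.92, -2.90 and -3.03. Closest to MXD4 were SEL1L3, FICD and ORAI2, with log2 fold changes of 1.20, 1.28 and 1.20. With 4 libraries in 2 groups, likeness of this kind mostly reflects a similar fold change.

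Genes that MYC is known to activate were mostly lower. The list was written by hand from general knowledge, with earlier results of these data known, so its counts are no independent evidence. It holds 40 genes, of which 38 were tested. Among the 40 are genes of ribosome production, nucleotide and polyamine synthesis, glycolysis, translation, protein folding and the cell cycle. By adjusted p (edgeR), 29 were lower and 3 higher, and 6 did not pass, where 36.4% of all tested genes were lower and 36.3% higher. Their median was -0.49 on the log2 scale, against -0.0037 for all tested genes. The number higher was 2 with DESeq2, with total counts, with no filter and with filterByExpr, and 1 with limma. With the fold limit, 4 of the 38 were called, all lower, a share near the 8.93% of all tested genes. DNPH1, a nucleotide hydrolase, fell furthest of the tested genes, by 1.29 on the log2 scale (standard error 0.0877). NPM1, a nucleolar chaperone, fell by 1.21, HSPD1, a mitochondrial chaperonin, by 1.18 and ODC1, the first enzyme of polyamine synthesis and a classical E-box target, by 1.14 on the log2 scale. LDHA, which makes lactate, fell by 0.98 and FBL, the methyltransferase of ribosomal RNA, fell by 0.89. UBTF, a factor for ribosomal RNA transcription, went the other way, at 0.85 (standard error 0.0625). The 2 genes not tested were TERT, at a mean RPKM of 0.850 in shCtl and 0.178 in shM2-3, and CCND2.

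Genes that MYC is known to repress split. Of 11 on the list, 8 were tested, and by adjusted p (edgeR) 5 were higher and 2 lower, around a median of 0.60 on the log2 scale, against 36.3% and 36.4% of all tested genes. One of the 5, PDGFRB, entered the test only through the shM2-3 libraries, and without it 4 of 7 were higher. CDKN2B, an inhibitor of the G1 kinases CDK4 and CDK6, had the largest rise at 2.55 (standard error 0.0552), with a mean RPKM of 7.68 in shCtl and 42.9 in shM2-3. CDKN1A, the p21 inhibitor, rose from 2.27 to 9.37 (log2 fold change 2.11). PDGFRB had an RPKM of 0.482 and 0.662 in shCtl, under the filter, and of 1.20 and 1.37 in shM2-3, so it could be tested, at a log2 fold change of 1.23, only because it was high in that group. NDRG1, a stress and differentiation gene, moved against the name of the list and fell from 287 to 108 (log2 fold change -1.35, standard error 0.0368). GADD45A also fell, by 0.58.

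The protein partners of the network were read from 3 further lists of the same origin, against the 36.3% of all tested genes that were higher and the 36.4% that were lower by adjusted p. Of 15 MYC coactivators and partners, 8 were higher and 5 lower by adjusted p (edgeR), around a median of 0.16 on the log2 scale, with the lower ones near the share of all genes, and 1 gene was called lower, against 8.93% of all tested genes. That gene was RUVBL2, an ATPase of chromatin remodelling complexes, which fell from a mean RPKM of 75.8 to 26.1 (log2 fold change -1.47). HCFC1, a cofactor that binds MYC, was the highest of the list at 0.63. The median of this list was 0.090 on log2(RPKM + 0.1) and 0.082 on log2(RPKM + 1). Its number higher was 7 with total counts, DESeq2 and no filter, 7 to 8 when each library was left out, and 6 with limma. Its number lower was 4 with DESeq2 and 4 to 5 when each library was left out. Of 15 genes of the SIN3 and NCOR1 corepressors that MXD proteins recruit, 8 were higher and 4 lower (median 0.33). The histone deacetylase HDAC1 was called higher at 1.22 (standard error 0.0439), with a mean RPKM of 44.5 in shCtl and 99.2 in shM2-3. SIN3A, the scaffold that the MXD proteins contact, rose with a log2 fold change of 0.76, and SAP30, another subunit, was lower at -0.998, just short of the fold limit. The number of corepressor genes called lower, 0 here against 8.93% of all tested genes, was 1 with total counts, with no filter, with filterByExpr, on log2(RPKM + 0.1), without shCtl replicate 1 and without shM2-3 replicate 2. Of 13 genes of the MGA complex, 3 of which stand on one of the other lists too, 7 were higher and 3 lower (median 0.21), and the number lower was 1 with DESeq2, without shCtl replicate 1 and without shM2-3 replicate 1. L3MBTL2, which binds histones in that complex, rose from 2.31 to 7.04 (log2 fold change 1.67, standard error 0.107), E2F6, its DNA-binding partner, rose with a value of 0.92, and YAF2 fell by 0.43.

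Of 14 genes that control the stability of MYC protein, 7 were lower and 2 higher by adjusted p (edgeR), around a median of -0.19 on the log2 scale, against 36.4% and 36.3% of all tested genes. The number lower was 4 with DESeq2, 5 to 7 when each library was left out, and 9 with total counts, with no filter, with filterByExpr and with limma. The mitotic kinases AURKA and PLK1, which have been linked to MYC-family protein stability, were called lower at -1.39 and -1.11. GSK3B, the kinase that marks MYC for degradation, was the highest at 0.80. FBXW7, the ubiquitin ligase subunit that recognises that mark, stood at 0.024 (adjusted p = 0.864, edgeR).

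The MLX arm and other E-box binding factors were also read. MLXIP, which encodes MondoA, rose from a mean RPKM of 7.75 to 12.1 (log2 fold change 0.71, standard error 0.0577), and MLXIPL was not tested at a mean RPKM of 0.05 or less. The 2 best known MondoA targets were both lower. TXNIP, an inhibitor of glucose uptake, fell from 309 to 123 (log2 fold change -1.27, standard error 0.0367) and its relative ARRDC4 fell by 0.50. Of 10 tested E-box factors outside the network, 5 were lower and 5 higher by adjusted p (edgeR), against 36.4% and 36.3% of all tested genes, with a median of 0.045 whose sign changed under other settings. TFEB, a lysosomal regulator among the 5 higher, had an RPKM under 1 in both shCtl libraries and entered only through shM2-3. Without it 4 were higher and the median was -0.19. MITF was the lowest at -1.48 and the circadian repressor BHLHE41 the highest at 2.33, with a mean RPKM of 7.42 in shCtl and 35.7 in shM2-3.

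**Figure D4:**
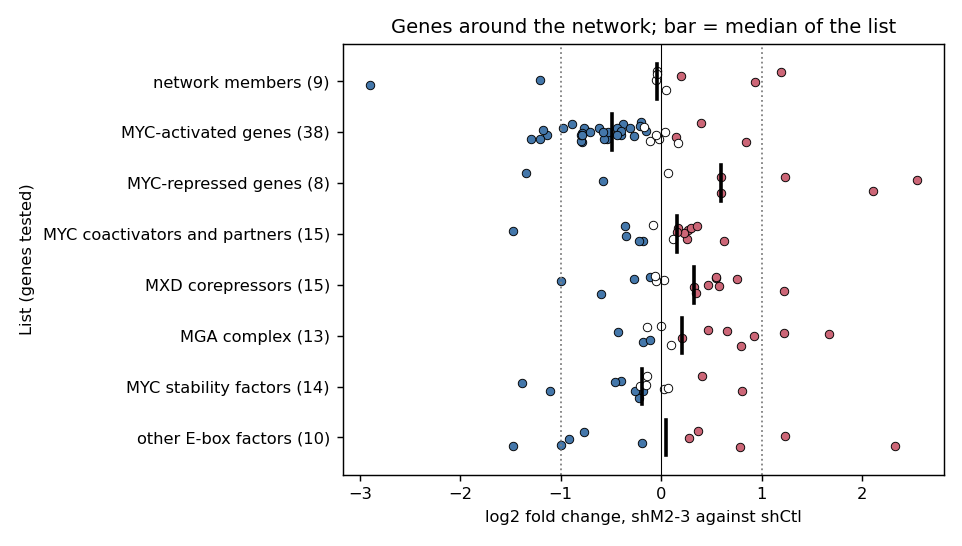
log2 fold change of each tested gene in 8 lists, with a black bar at the median. Blue and red points were lower and higher at an adjusted p of 0.05 or less, white points did not pass, and dotted lines mark a fold change of 2. The MYC-activated genes lie mostly left of 0, with a median of -0.49.

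Promoter sequences show which of these genes carry the letters that the network binds. Windows of 300 bases, from 250 before to 50 after a transcript start, were read from RefSeq (GRCh38.p14). The motif CACGTG, which reads the same on both strands, was present in 7.26% of 35116 windows, and GGAATG, the core motif of TEAD factors (searched on both strands), in 14.0%. The table used held windows for 9 members and none for MYC. Of these 9, 3 held CACGTG (MXD4, MNT and MLX) and 3 held GGAATG (MXI1, MLX and MGA) in at least 1 window, compared with 1202 (12.6%) and 1440 of 9571 tested genes. The windows of MAX, MXD1, MXD3 and MYCL held neither.

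The windows of the 2 MXD antagonists that were called are printed with those of MNT and MLX, as the members that carry either motif near a start and were most abundant. Each runs 5′ to 3′ on the strand of the gene, in lower case with CACGTG and GGAATG (or its complement CATTCC) in capitals.
MXD4 (higher; chr4:2262060-2262359, minus strand): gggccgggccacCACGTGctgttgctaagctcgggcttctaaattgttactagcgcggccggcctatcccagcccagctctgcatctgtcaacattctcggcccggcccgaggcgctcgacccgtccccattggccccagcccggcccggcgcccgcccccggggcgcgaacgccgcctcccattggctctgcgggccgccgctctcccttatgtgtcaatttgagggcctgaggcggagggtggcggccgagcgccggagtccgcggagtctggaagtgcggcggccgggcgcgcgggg
MXI1 (lower; chr10:110207355-110207654, plus strand): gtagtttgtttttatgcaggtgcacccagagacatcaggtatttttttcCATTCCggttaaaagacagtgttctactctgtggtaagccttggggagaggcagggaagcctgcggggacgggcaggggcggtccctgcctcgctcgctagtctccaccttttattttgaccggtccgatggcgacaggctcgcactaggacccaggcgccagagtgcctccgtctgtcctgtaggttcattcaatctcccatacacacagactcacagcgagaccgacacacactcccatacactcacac
MNT (chr17:2401011-2401310, minus strand): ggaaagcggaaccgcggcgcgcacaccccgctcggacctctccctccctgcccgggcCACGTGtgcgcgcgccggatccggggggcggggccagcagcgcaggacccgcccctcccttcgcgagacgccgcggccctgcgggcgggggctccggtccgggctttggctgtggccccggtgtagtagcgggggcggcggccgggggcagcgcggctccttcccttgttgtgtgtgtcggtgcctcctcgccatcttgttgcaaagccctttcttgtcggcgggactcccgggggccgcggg
MLX (chr17:42566850-42567149, plus strand): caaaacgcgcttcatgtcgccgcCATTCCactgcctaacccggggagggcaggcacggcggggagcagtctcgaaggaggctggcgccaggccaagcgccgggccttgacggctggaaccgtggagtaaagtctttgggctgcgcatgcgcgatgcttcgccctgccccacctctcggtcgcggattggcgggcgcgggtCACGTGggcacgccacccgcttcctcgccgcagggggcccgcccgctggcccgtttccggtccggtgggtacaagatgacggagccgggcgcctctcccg

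In these windows the E-box of MXD4 begins 238 bases before the start, that of MNT 193 and that of MLX 50. The CATTCC of MXI1 begins 201 bases before the most upstream of its 3 starts, and the windows at its other 2 starts held neither motif.

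Among the MYC-activated genes, 18 of 34 with a window (52.9%) held CACGTG, compared with 12.6% of tested genes, and none of 7 MYC-repressed genes did. Of the 4 MYC-activated genes called lower, 3 held it, and NPM1 did not. The stretches of 66 bases around the first CACGTG of these 3 are shown as examples. The list was chosen from known MYC targets, so its share with CACGTG is no independent evidence.
DNPH1 (chr6:43229475-43229540, minus strand): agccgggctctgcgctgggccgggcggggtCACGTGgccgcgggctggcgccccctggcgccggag
HSPD1 (chr2:197500327-197500392, minus strand): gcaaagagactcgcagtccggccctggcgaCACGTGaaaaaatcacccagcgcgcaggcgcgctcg
ODC1 (chr2:10448006-10448071, minus strand): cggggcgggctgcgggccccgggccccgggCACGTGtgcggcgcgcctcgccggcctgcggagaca

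The motif begins 29 bases before the start in DNPH1 and in ODC1, whose window of 300 bases holds 2 copies, and 88 bases before it in HSPD1. Of genes called lower, 11.2% of 815 with a window held CACGTG, and of genes called higher, 10.2% of 854. For GGAATG these shares were 17.5% and 16.6%. A match of letters does not show binding, and no binding data were analysed here.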

How the data were processed

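The authors aligned paired-end reads to hg38 with HISAT2 2.0.4, discarded ambiguous reads and those mapped with low quality, and quantified RefSeq genes in Partek 7.18 (submitters' processing notes and methods). They deposited estimated counts, which need not be whole (42.4% to 48.6% of values per library equalled a whole number exactly, zeros included), and RPKM. Here counts were rounded, and edgeR 4.0.16 under R 4.3.3 (TMM, glmQLFit, glmQLFTest, Benjamini-Hochberg adjustment) was run on the 12157 genes whose RPKM exceeded 1 in any library. This filter, the fold change of 2 and the adjusted p of 0.05 follow the study. The standard error is the log2 fold change divided by the square root of F. Replicates differed by 3.46 (shCtl) and 3.98 (shM2-3) times sampling noise (chi-square per degree of freedom), so each library counted once. With 2 libraries per group, each SD or spread rests on 1 pair. DESeq2 1.42.0, limma 3.58.1 on log2(RPKM + 0.1) and log2(RPKM + 1), other filters and scalings, a replicate block and leaving out each library were the alternatives. Positions come from GENCODE release 44. The members and lists were chosen with earlier results of these data known. Named genes were all members, MAML2, YAP1, the ends of each list, genes of lists of 3 or fewer and the 3 genes nearest to MYC and MXD4. NPM1, HSPD1, ODC1, LDHA, FBL, CDKN1A, PDGFRB, GADD45A, TFEB, SIN3A, E2F6, PLK1, FBXW7, LRATD2, TERT, CCND2, the other marker genes and the genes overlapping members were named after their values were seen. PHB1 was matched by its older symbol. Some marker genes are not reported here.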

Additional observations from a re-analysis of the deposited data

How the results depend on the processing

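The adjusted p of MYC, MXI1, MXD4 and MAX stayed at 0.05 or less in all 11 alternatives, and the range of log2 fold changes was -2.96 to -2.87 for MYC, -1.27 to -1.16 for MXI1, 1.04 to 1.25 for MXD4 and 0.80 to 1.03 for MAX. With a fold change limit of 1.5, 2 members were called higher (MAX being the added one) and 4598 genes were called in all, against 2209 with a limit of 2. On log2(RPKM + 1), 1320 genes were called. Leaving out 1 library gave 1 to 2 members called higher. MXD1 turned to -0.0042 on log2(RPKM + 0.1) and -0.0048 on log2(RPKM + 1), and ranged from -0.11 to 0.24 when each library was left out. In the same way MXD3 ranged from -0.20 to 0.089, MGA from -0.12 to 0.029 and MLX from -0.22 to 0.12. Without the filter on low values, the log2 difference of MYCL was 0.71 (standard error 1.21, adjusted p = 0.645, edgeR).

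List medians moved by more than the replicate spread as follows. With total counts they were 0.18 for the MGA complex and 0.0092 for other E-box factors. With no filter they were 0.18 for the MGA complex, -0.57 for MYC-activated genes, -0.22 for other E-box factors and 0.12 for neighbours of MYC, the last 2 with a changed sign as more low genes entered. With filterByExpr they were -0.55 for MYC-activated genes and 0.028 for other E-box factors. On log2(RPKM + 0.1) they were -0.94 for MondoA targets, 0.26 for MXD corepressors, 0.14 for the MGA complex, -0.55 for MYC-activated genes, 0.53 for MYC-repressed genes and -0.021 for other E-box factors. On log2(RPKM + 1) they were 0.59 for MLXIP, 0.23 for MXD corepressors, 0.14 for the MGA complex, -0.53 for MYC-activated genes, 0.52 for MYC-repressed genes and -0.022 for other E-box factors. Leaving out genes that passed the filter through 1 group only was an alternative chosen after seeing the data. It gave -0.19 for other E-box factors (without TFEB). The median of MYC-repressed genes was 0.60 with and without PDGFRB, and so did not move. Leaving out libraries gave 0.23 to 0.38 for MXD corepressors and 0.18 to 0.25 for the MGA complex. The cause was not tested. No deviation shared by samples with the same replicate number was seen (correlation of deviations -0.017). Whether such samples were handled together cannot be told from this value. With the replicate block, the log2 fold change was -2.90 for MYC, 2 members were called lower and 1 higher, and 2202 genes were called, so the block changed no call of a member. With 2 libraries per group, small changes such as that of MNT are at the limit of the data.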
